A study of Mus musculus with 11 samples.

Results

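Collagens, laminins, and the genes that organize and cross-link the extracellular matrix were described in 4 mouse cell lines. The members are the genes whose mouse symbol is that of a collagen chain, a laminin chain, a nidogen, a lysyl oxidase, a fibulin, a fibrillin, an Efemp gene or a thrombospondin, together with Fn1, Hspg2, Agrn, Sparc, Tnc, Postn, Bgn, Dcn, Lum, Vcan and Eln. The annotation holds 85 such symbols, and 61 of them are among the 14272 genes with values. By role these are 8 fibrillar collagens, 13 other collagens, 19 basement membrane genes, 5 lysyl oxidases, 7 elastic fibre genes, 7 matricellular and adhesive genes and 2 proteoglycans. The other 24 were not analysed here, and they are Col1a2, Col4a5, Col4a6, Col5a2, Col6a4, Col6a5, Col6a6, Col8a1, Col8a2, Col11a1, Col13a1, Col14a1, Col19a1, Col22a1, Col25a1, Col26a1, Col28a1, Lama2, Lama3, Dcn, Lum, Eln, Efemp1 and Thbs4. The authors kept genes with at least 1 CPM (read per 1 M counted reads) in at least 4 libraries. A member with few or no reads in some lines therefore had to be high in others to have a value at all, and the counts over the 61 members below are descriptions.

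The lines model the progression of melanoma, each stage by 1 line: melan-a, nonmalignant melanocytes, and the premalignant 4C, the non-metastatic melanoma 4C11- and the metastatic melanoma 4C11+, which came from melan-a by repeated cycles in which anchorage was prevented. All grew in RPMI with 5% serum, melan-a also with 200 nM of the phorbol ester PMA, which cannot be told apart from the difference between melan-a and the other lines. By the methods of the study, 4C and 4C11- are mesenchymal-like and melan-a and 4C11+ are epithelial. The deposited log2 CPM of 11 libraries were used, 2 of melan-a (replicates 2 and 3, replicate 1 not analysed here) and 3 of each other line. Depth was estimated from the step of the low values at 40 reads. It came to 3.50 and 5.82 M reads for melan-a, 5.67 to 7.08 M for 4C, 4.58 to 7.42 M for 4C11- and 4.07 to 5.47 M for 4C11+. This estimate takes the values as plain log2 CPM, and it is unreliable if they were quantile normalized (see the processing below). By their lowest values, -3.15 and -2.58, melan-a replicates 2 and 3 would have the opposite order of depth.

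Collagens are trimers of alpha chains that are hydroxylated and folded in the endoplasmic reticulum, trimmed outside the cell and then joined into fibrils, filaments or sheets, which lysyl oxidases make stable by cross-linking lysines. Basement membranes are built from a laminin network of alpha, beta and gamma chains and a collagen IV network, bridged by nidogens and perlecan. In skin, melanocytes sit on the basement membrane below the epidermis, while fibroblasts of the dermis are the main source of interstitial collagen, elastic fibres and small proteoglycans.

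The 2 melan-a libraries stood apart from each other in these genes. Of the 61 members, 13 (21.3%) differed by more than 3 on the log2 scale between melan-a replicates 2 and 3, against 473 of all genes (3.31%). The median gap was 1.25 for the members and 0.61 for all genes. Higher in replicate 2 were 10 members, among them Tnc at 8.30 against -1.42, Col6a1 at 7.90 against 0.22, Col6a2 at 5.45 against -1.42, Col4a1 at 5.26 against 0.40 and Col18a1 at 5.14 against 1.04. Higher in replicate 3 were Fbln5 at 5.62 against 1.35, Postn at 2.67 against -1.90 and Loxl4 at 0.22 against -3.15. Other members were at like levels in both libraries, such as Col1a1 at 1.35 and 1.48 and Lama4 at 6.74 and 6.91. Between libraries of the same line among the others, 0 to 4 members differed by more than 3, the highest number between 4C11- replicates 1 and 3. That pair was the less alike over all genes, 678 (4.75%) differing by more than 3 with an r of 0.888, against an r of 0.907 for the melan-a pair. Results that rest on melan-a are therefore given with each of its libraries left out wherever that ends a call or moves a log2 difference by more than 1.5 times.

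Markers of cell types were compared across the same libraries. All 8 listed melanocyte markers had values, and their summed level was 1870 and 9030 CPM in melan-a replicates 2 and 3, 3.61 to 7.47 CPM in 4C, 3.11 to 11.6 CPM in 4C11- and 10600 to 12900 CPM in 4C11+. All 8 were called lower in 4C than in melan-a and higher in 4C11+ than in 4C11-, so 4C and 4C11- nearly lack the defining transcripts of the lineage they came from. Of those calls only that of Pmel between 4C and melan-a was lost when 1 library was left out, either melan-a replicate 3 or 4C replicate 2 (adjusted p up to 0.0998). Tyr and Pmel were low in melan-a too, at -0.25 and 1.29 and at 2.41 and 2.95 in replicates 2 and 3. Their means in 4C11+ were 8.52 and 11.91. Pmel in 4C11- replicate 1, at 2.54, was above melan-a replicate 2. Of 9 fibroblast markers 5 had values, with a sum of 203 and 17.5 CPM in melan-a replicates 2 and 3, 480 to 682 CPM in 4C, 512 to 606 CPM in 4C11- and 23.6 to 41.5 CPM in 4C11+. The most abundant of them was Pdgfrb in 8 of the 11 libraries and Pdgfra in the other 3, and the fibroblast gene Twist2 was at 0 reads in both melan-a libraries and all 3 of 4C11+ and at 4.22 to 5.17 in 4C and 4C11-. Of the endothelial markers only Cdh5 had a value, at 6.54 to 7.43 in 4C11-, -0.70 to 4.01 in 4C and 0 reads in 4C11+, and Cd68, the only leukocyte marker with a value, was at 6.35 in melan-a replicate 2 and 2.67 in replicate 3. The keratinocyte list was represented by Krt10 at 1.48 or less. The part of these cell types in the results below was not tested. In bulk RNA, fewer cells of a type and less RNA per cell cannot be told apart.

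The members together made up 1.12% to 1.65% of the summed CPM in 4C and 1.14% to 1.57% in 4C11-, against 0.270% to 0.305% in 4C11+, without overlap. In melan-a the share was 1.06% in replicate 2 and 0.341% in replicate 3. The most abundant member was Col1a1 in all 6 libraries of 4C and 4C11-, with 10.9% to 16.0% of the members' sum, Fn1 in both melan-a libraries, with 18.9% and 13.2%, and Sparc in the 3 libraries of 4C11+, with 34.3% to 39.1%.

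The comparison of 4C with melan-a asks what changed at the premalignant step. Of the 61 members 26 were called higher in 4C and 14 lower at an adjusted p under 0.05, beside 7.64% and 7.55% of all genes, so 42.6% and 23.0% of the members. The median log2 difference was 0.95 for the members and -0.06 for all genes, and the median size of the difference, whatever its sign, was 3.06 and 0.54. With genes at 3 reads or fewer set to their bound, the members' medians were 0.95 and 2.75. Without melan-a replicate 2 the counts were 31 higher and 9 lower, and without replicate 3 they were 22 and 14.

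The next step, from 4C to 4C11-, left 55 of the 61 members called neither higher nor lower. Higher in 4C11- were 6 members, beside 1.26% of all genes, and 0 were called lower by limma, beside 0.406%. At an unadjusted p under 0.05 the numbers were 12 and 4. The share of all genes at that threshold is not given here, so these numbers have no background beside them. The median log2 difference was 0.01 for the members and for all genes, and 0.0 with low genes at their bound. Without 4C11- replicate 2 the number called higher was 3, and it was 9 without melan-a replicate 2 or 3, although neither line of this comparison is melan-a and the difference itself is then the same.

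Between the 2 melanoma lines the direction was the opposite of that between 4C and melan-a. In 4C11+ 10 members were called higher than in 4C11- and 38 lower, beside 15.6% and 15.4% of all genes. The members' median log2 difference was -2.54, or -2.24 with low genes at their bound, and that of all genes was 0.12. In 4C11+ against melan-a, which compares the epithelial lines, 5 members were called higher and 15 lower, beside 8.39% and 7.52% of all genes, with medians of -0.84, or -0.51 with low genes at their bound, and 0.03. Those counts were 4 and 7 without melan-a replicate 2, 6 and 25 without melan-a replicate 3, and the number called higher was 2 without 4C11+ replicate 1. Where the mesenchymal-like lines 4C and 4C11- were compared with the epithelial lines melan-a and 4C11+, 39 members were called higher and 15 lower, beside 14.3% and 15.3% of all genes, with medians of 1.54, or 1.39 with low genes at their bound, and -0.09. These comparisons share libraries, so their directions are not independent of each other. In the last of them, 24 of the 39 members called higher and 9 of the 15 called lower had no overlap between the phenotypes. It sets averages of line means side by side, so a call can rest on a single line. Col4a4 was called higher although its mean in 4C was below those of melan-a and 4C11+. Fn1 and Thbs1 were called higher although their means in melan-a were above those of 4C and 4C11-.

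**Figure D1:**
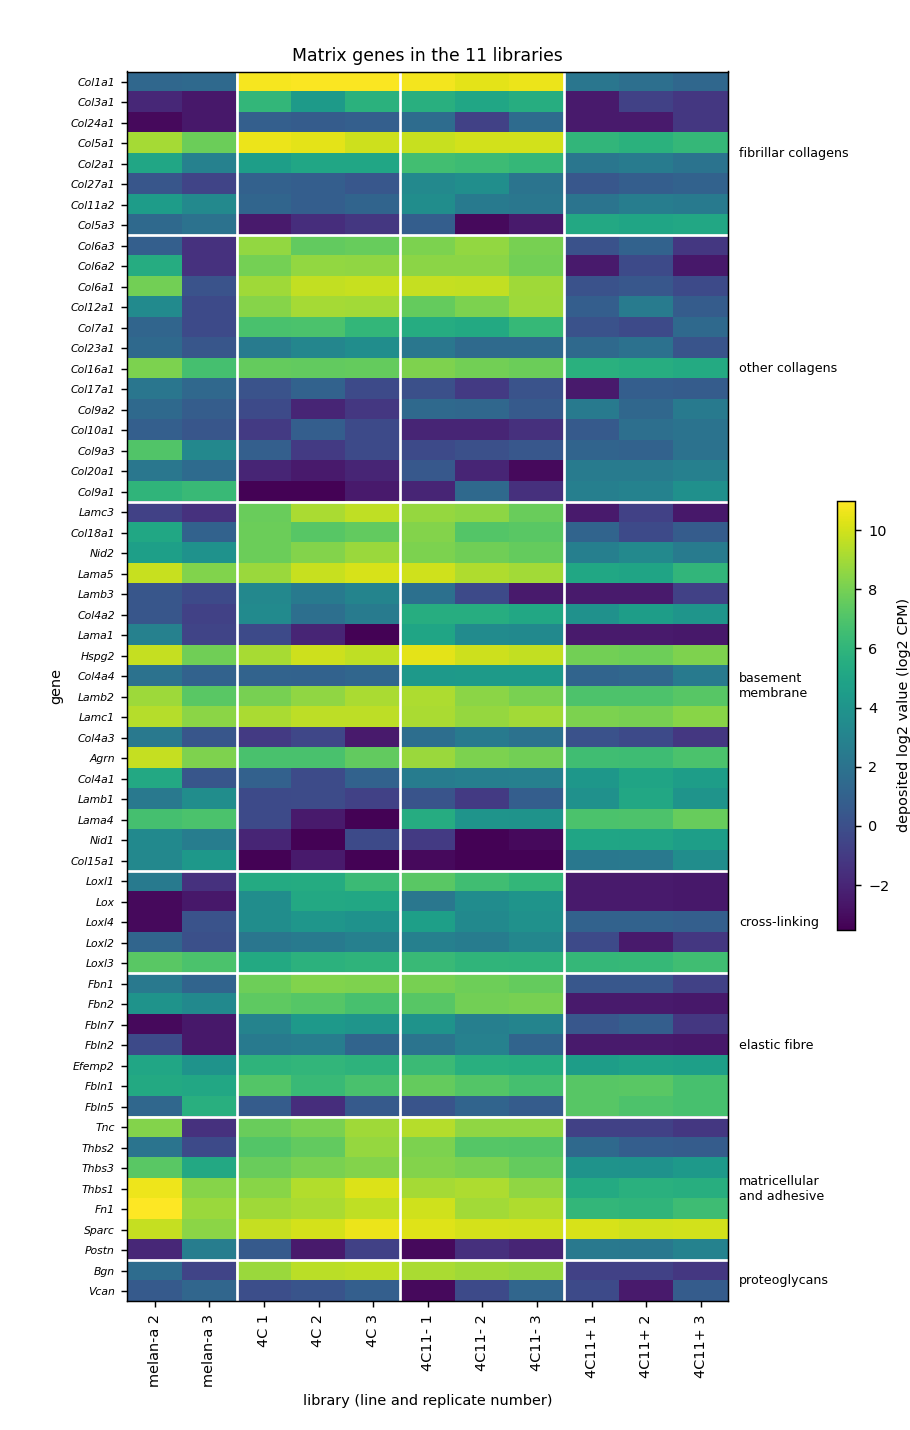
Deposited log2 CPM of matrix genes (rows, by role) in the 11 libraries (columns, by line and replicate number). Within a role the genes run from those higher in 4C and 4C11- to those higher in melan-a and 4C11+; Col1a1, Lamc3 and Bgn are high in 6 libraries and at 2.16 or less in 5, and Nid1, Lama4 and Col15a1 show the reverse, except that Lama4 is also present in 4C11-.

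**Figure D2:**
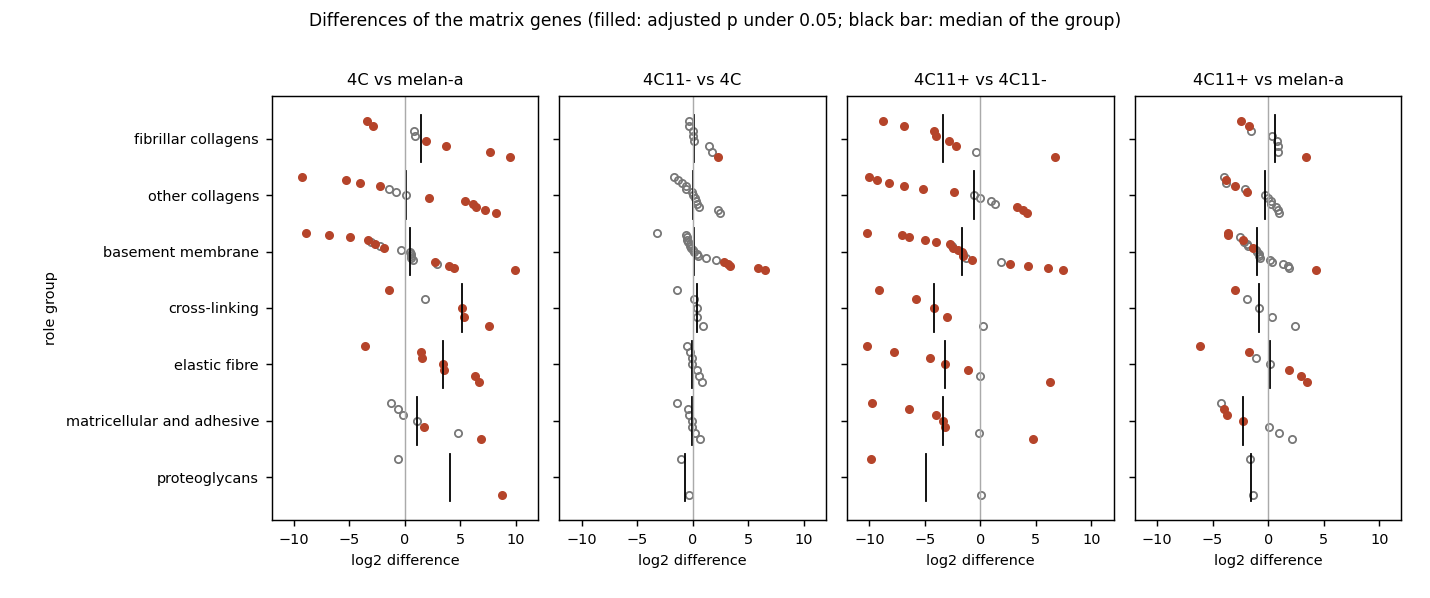
Log2 differences (horizontal axis) of the members of each role group (vertical axis) in the comparisons of single lines. Each point is a gene, filled points have an adjusted p under 0.05 and the black bar is the median of the group; in 4C11- against 4C 6 points are filled, and in 4C11+ against 4C11- 48 are.

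Fibrillar collagens form the cross-banded fibres of connective tissue. Col1a1, the alpha1 chain of type I collagen, was at 1.35 and 1.48 in the melan-a libraries, 10.81, 10.91 and 10.91 in those of 4C, 10.74, 10.42 and 10.55 in 4C11- and 2.16, 1.78 and 1.32 in 4C11+. It was high in all 6 mesenchymal-like libraries and low in all 5 epithelial ones, and the 2 melan-a libraries were alike. The log2 difference was 9.46 ± 0.26 (SE, adjusted p = 3.76e-09) between 4C and melan-a and -8.81 ± 0.23 (SE, adjusted p = 2.35e-09) between 4C11+ and 4C11-. Col3a1, the chain of type III collagen that is laid down together with type I, was at -1.90 and -2.58 in the melan-a libraries, 6.08, 4.39 and 5.74 in those of 4C, 5.62, 5.10 and 5.52 in 4C11- and -2.44, -0.70 and -1.16 in 4C11+. It followed the same pattern with no overlap, and no melan-a or 4C11+ library held more than 1 read of it. The counting intervals and lower bounds given here and below cover counting error only, and values with a library left out are plain log2 differences without them. In 4C it was 200-fold (95% counting interval 58 to 303) higher than in melan-a (adjusted p = 5.23e-06), and in 4C11+ it was 115-fold (95% counting interval 49.2 to 205) lower than in 4C11- (adjusted p = 3.19e-06).

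The chains of type V collagen, which sets the diameter of type I fibrils, parted. Col5a1 was at 9.02 and 7.77 in the melan-a libraries, 10.56, 10.43 and 9.89 in those of 4C, 9.79, 10.02 and 9.99 in 4C11- and 6.03, 5.74 and 6.15 in 4C11+. It was present throughout, highest in 4C and 4C11- and lowest in 4C11+, where no library reached those of melan-a. The log2 difference was 1.90 ± 0.33 (SE, adjusted p = 0.0022) in 4C against melan-a, -3.96 ± 0.30 (SE, adjusted p = 1.88e-06) in 4C11+ against 4C11- and -2.42 ± 0.33 (SE, adjusted p = 0.000668) in 4C11+ against melan-a. Col5a3, which can take the place of another chain in the trimer, was at 1.48 and 1.96 in the melan-a libraries, -2.44, -1.61 and -1.16 in those of 4C, 0.85, -3.15 and -2.44 in 4C11- and 5.22, 5.0 and 5.18 in 4C11+. It was highest in the 3 libraries of 4C11+, which overlapped no other line. The log2 difference from 4C11- to 4C11+ was 6.71 ± 0.85 (SE, adjusted p = 0.000117). The call of Col5a3 as 11-fold (95% counting interval 4.59 to 18.4) lower in 4C than in melan-a (adjusted p = 0.03) was lost without any 1 of melan-a replicates 2 and 3 and 4C replicates 1 and 2 (log2 differences -3.11 to -3.70, adjusted p = 0.071 to 0.123). Its call as higher in 4C11+ than in melan-a, 3.41 (adjusted p = 0.032), was lost without any 1 of melan-a replicates 2 and 3 and 4C11+ replicates 1, 2 and 3 (log2 differences 3.17 to 3.65, adjusted p = 0.0658 to 0.158). Per kb of exon, on the scale of log2 CPM minus log2 length, Col5a1 stood at 2.89 and Col5a3 at 2.37 in 4C11+, and at 7.21 and -4.50 in 4C.

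Among the remaining fibrillar collagens, Col2a1, the cartilage chain, was at 5.10 and 2.89 in the melan-a libraries, 4.64, 5.11 and 5.09 in those of 4C, 6.64, 6.43 and 6.14 in 4C11- and 2.16, 2.52 and 2.02 in 4C11+. It was higher in every library of 4C11- than elsewhere and fell by 4.16 to 4C11+ (adjusted p = 4.13e-05). Its call as lower in 4C11+ than in melan-a, -1.76 (adjusted p = 0.0384), was lost without any 1 of melan-a replicate 2, 4C replicates 2 and 3, 4C11- replicate 2 and 4C11+ replicates 1, 2 and 3 (log2 differences -0.65 to -1.90, adjusted p = 0.0555 to 0.341), and the difference was -2.87 without melan-a replicate 3. Col11a2, a minor fibrillar chain, had means of 3.92 for melan-a, 1.08 for 4C, 2.78 for 4C11- and 2.42 for 4C11+, with a log2 difference of -2.85 ± 0.50 (SE, adjusted p = 0.00234) in 4C against melan-a. As lower in the mesenchymal-like lines together it was called at -1.24 (adjusted p = 0.0158), and this was lost without melan-a replicate 2 (log2 difference -0.95, adjusted p = 0.0719). Col24a1 was low throughout, at most 1.65, and at 0 reads in both melan-a libraries, so that it was at least 2.32-fold higher in 4C (adjusted p = 0.00802). Col27a1 was higher in 4C11- than in 4C by 2.25 (adjusted p = 0.0482), a call lost without any 1 of 4C replicates 1, 2 and 3, 4C11- replicates 1 and 2 and 4C11+ replicates 1, 2 and 3 (log2 differences 1.93 to 2.38, adjusted p = 0.0701 to 0.206), and called lower in 4C11+ than in 4C11- at -2.24 (adjusted p = 0.00539).

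Type VI collagen forms beaded filaments around cells, and 3 of its chains, Col6a1, Col6a2 and Col6a3, had values here. Col6a4, Col6a5 and Col6a6 were not analysed here. Col6a3 was at 0.87 and -1.42 in the melan-a libraries, 8.66, 7.54 and 7.64 in those of 4C, 8.12, 8.62 and 8.0 in 4C11- and 0.15, 1.04 and -1.16 in 4C11+. Col6a1 was at 7.90 and 0.22 in the melan-a libraries, 8.91, 9.64 and 9.80 in those of 4C, 9.73, 9.68 and 8.95 in 4C11- and 0.15, 0.44 and -0.24 in 4C11+. Col6a2 was at 5.45 and -1.42 in the melan-a libraries, 7.96, 8.65 and 8.57 in those of 4C, 8.49, 8.50 and 7.90 in 4C11- and -2.44, -0.24 and -2.58 in 4C11+. All 3 chains were between 7.54 and 9.80 in every mesenchymal-like library and at or below 1.04 in every 4C11+ library, and in melan-a replicate 2, but not 3, Col6a1 and Col6a2 approached the mesenchymal-like level while Col6a3 did not. From 4C11- to 4C11+ the log2 difference was -8.24 ± 0.63 (SE, adjusted p = 2.14e-06) for Col6a3 and -9.33 ± 1.34 (SE, adjusted p = 0.000295) for Col6a1, and Col6a2 was 1060-fold (95% counting interval 362 to 1510) lower (adjusted p = 0.000122). In 4C against melan-a it was 8.22 ± 0.70 (SE, adjusted p = 8.15e-06) for Col6a3. For Col6a1 it was 5.39 (adjusted p = 0.0313), but 9.23 without melan-a replicate 2 and 1.55 without melan-a replicate 3, and the call was lost without any 1 of 4C replicates 1, 2 and 3 (log2 differences 5.22 to 5.66, adjusted p = 0.0597 to 0.0856). For Col6a2 it was 6.38 (adjusted p = 0.0105), 9.81 without melan-a replicate 2 and 2.94 without melan-a replicate 3. The mean levels per kb of exon (log2 CPM minus log2 length) in 4C were 7.32 for Col6a1, 5.34 for Col6a2 and 4.37 for Col6a3, and in 4C11+ they were -2.01, -4.81 and -3.57.

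Col6a1 and Col6a2 lie on the same strand of chromosome 10 with 85161 bases between them, and Col6a3 is on chromosome 1. Their promoter windows are shown because the 3 chains moved together between 4C11- and 4C11+ while only those from chromosome 10 differed by more than 3 between the melan-a libraries. Each runs from 250 bases before to 50 after the start in RefSeq (GRCm38.p6), 5′ to 3′ on the strand of the gene: Col6a1 at chr10:76725995-76726294 on the minus strand, Col6a2 at chr10:76623355-76623654 on the minus strand (the one of its 2 windows nearer the 3′ side) and Col6a3 at chr1:90843922-90844221 on the minus strand. Capitals mark the words searched on both strands, which were TGANTCA (the AP-1 word), CAGGTG (an E-box bound by Zeb and Snail factors), GGAATG (the TEAD word), TATAAA and the GC box GGGCGG. The Col6a1 window holds the AP-1 word 90 bases before its start. The Col6a2 window holds the TEAD word and 3 GC boxes, of which the last 2 overlap each other, while the other Col6a2 window (chr10:76623581-76623880, not shown), the one at the annotated start of the gene, holds 1 GC box and no other of these words. The Col6a3 window holds none of the 5 words, which says only that these letters are not in it.
Col6a1: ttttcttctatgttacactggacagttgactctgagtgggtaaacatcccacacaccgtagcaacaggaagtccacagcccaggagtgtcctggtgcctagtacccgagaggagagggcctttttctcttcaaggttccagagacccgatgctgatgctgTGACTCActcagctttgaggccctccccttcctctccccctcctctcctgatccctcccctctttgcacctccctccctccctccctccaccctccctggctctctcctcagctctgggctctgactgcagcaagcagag
Col6a2: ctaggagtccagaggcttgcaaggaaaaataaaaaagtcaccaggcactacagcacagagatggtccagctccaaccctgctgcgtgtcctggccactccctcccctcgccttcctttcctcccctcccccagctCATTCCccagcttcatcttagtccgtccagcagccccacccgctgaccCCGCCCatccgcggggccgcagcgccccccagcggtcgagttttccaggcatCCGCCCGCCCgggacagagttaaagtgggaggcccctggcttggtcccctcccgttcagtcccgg
Col6a3: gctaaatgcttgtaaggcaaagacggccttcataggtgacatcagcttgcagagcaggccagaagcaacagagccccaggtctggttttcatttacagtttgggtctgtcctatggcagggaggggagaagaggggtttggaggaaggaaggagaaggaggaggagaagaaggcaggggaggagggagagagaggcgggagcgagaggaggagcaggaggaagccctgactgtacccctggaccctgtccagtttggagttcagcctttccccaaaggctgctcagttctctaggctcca

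Of the 61 members, 43 had promoter windows in the reference table, 54 windows in all, and they were set beside the 32851 windows of all genes. The AP-1 word was in 1.85% of the members' windows and 7.81% of all windows, the E-box in 11.1% and 20.2%, the TEAD word in 13% and 14.7%, TATAAA in 14.8% and 13.6%, and the GC box in 59.3% and 35.7%. A match describes the letters in a window and does not show that a factor binds there.

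Type IX collagens, which decorate the surface of cartilage fibrils, ran the other way. Col9a1 was at 5.98 and 6.31 in the melan-a libraries, -3.44, -3.44 and -2.44 in those of 4C, -2.01, 1.44 and -1.50 in 4C11- and 2.78, 2.91 and 3.75 in 4C11+. It was high in melan-a, lower in 4C11+ and nearly absent from 4C, where no library held more than 1 read. In 4C it was 608-fold (95% counting interval 293 to 758) lower than in melan-a (adjusted p = 1.77e-05), and the difference of 4C11+ from 4C11- was 3.84 ± 0.78 (SE, adjusted p = 0.00319). Its call as lower in 4C11+ than in melan-a, -2.99 (adjusted p = 0.0379), was lost without any 1 of melan-a replicates 2 and 3, 4C replicate 2 and 4C11+ replicates 1 and 2 (log2 differences -2.81 to -3.16, adjusted p = 0.0534 to 0.133). Col9a3 was at 7.07 and 3.29 in the melan-a libraries, 0.87, -1.01 and -0.25 in those of 4C, -0.24, 0.06 and 0.42 in 4C11- and 1.18, 1.04 and 1.97 in 4C11+. Both melan-a libraries were above all others but differed from each other, and the log2 difference of 4C from melan-a was -5.32 ± 0.92 (SE, adjusted p = 0.00205) and -3.43 without melan-a replicate 2. Its call in 4C11+ against melan-a, -3.79 (adjusted p = 0.0178), was lost without any 1 of melan-a replicate 2 and 4C11+ replicates 1 and 2 (log2 differences -1.90 to -3.68, adjusted p = 0.0615 to 0.176). Col9a2, the third chain, was low in all lines, and its call as lower in 4C, -2.26 (adjusted p = 0.0339), was lost without any 1 of melan-a replicates 2 and 3, 4C replicates 2 and 3, 4C11- replicate 2 and 4C11+ replicate 1 (log2 differences -1.82 to -2.62, adjusted p = 0.0519 to 0.174). That of Col9a2 in the mesenchymal-like lines together, -1.61 (adjusted p = 0.0143), was lost without melan-a replicate 2 (log2 difference -1.42, adjusted p = 0.0531).

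Col12a1, which coats type I fibrils, was at 3.45 and -0.24 in the melan-a libraries, 8.35, 9.04 and 8.97 in those of 4C, 7.59, 8.17 and 8.88 in 4C11- and 0.84, 2.52 and 0.69 in 4C11+. Col7a1, the anchoring fibril of the epidermal junction, was at 1.21 and -0.24 in the melan-a libraries, 6.85, 6.88 and 6.12 in those of 4C, 5.48, 5.31 and 6.21 in 4C11- and 0.15, -0.24 and 1.44 in 4C11+. Both were high in 4C and 4C11- and low in 4C11+ and melan-a without overlap, with log2 differences of 7.18 ± 0.88 (SE, adjusted p = 0.000147) and 6.13 ± 0.57 (SE, adjusted p = 1.51e-05) in 4C against melan-a and of -6.86 ± 0.78 (SE, adjusted p = 5.35e-05) and -5.22 ± 0.51 (SE, adjusted p = 1.51e-05) in 4C11+ against 4C11-. Col16a1, which also associates with fibrils, was present in all lines and lowest in 4C11+, with log2 differences of -2.42 ± 0.31 (SE, adjusted p = 0.000112) against 4C11- and -1.91 ± 0.34 (SE, adjusted p = 0.00355) against melan-a, the latter -1.21 without melan-a replicate 2. Col20a1 was at 2.25 and 1.59 in the melan-a libraries, -1.98, -2.44 and -2.01 in those of 4C, 0.48, -2.01 and -3.15 in 4C11- and 2.54, 2.52 and 2.81 in 4C11+. It was at 1.59 or more in melan-a and 4C11+ and at 0.48 or less elsewhere, with a difference of 4.18 ± 0.78 (SE, adjusted p = 0.00175) in 4C11+ against 4C11-, and in 4C it was 16.7-fold (95% counting interval 6.82 to 25.9) lower than in melan-a (adjusted p = 0.00771), a call lost without melan-a replicate 2 (log2 difference -3.73, adjusted p = 0.0546). Col10a1, a network collagen of growth cartilage, was higher in 4C11+ than in 4C11- by 3.32 ± 0.60 (SE, adjusted p = 0.00155) at means of 1.48 and -1.84. The transmembrane collagen Col23a1 was called higher in 4C than in melan-a, 2.15 (adjusted p = 0.0283), a call lost without any 1 of melan-a replicate 3 and 4C replicates 2 and 3 (log2 differences 1.61 to 2.13, adjusted p = 0.0823 to 0.17). In the mesenchymal-like lines together it was called at 1.35 (adjusted p = 0.0225) and lost without any 1 of melan-a replicate 3 and 4C replicates 2 and 3 (log2 differences 1.08 to 1.34, adjusted p = 0.0507 to 0.0919). Col17a1 was called in none of the comparisons and was at or below 2.17 in every library.

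**Figure D3:**
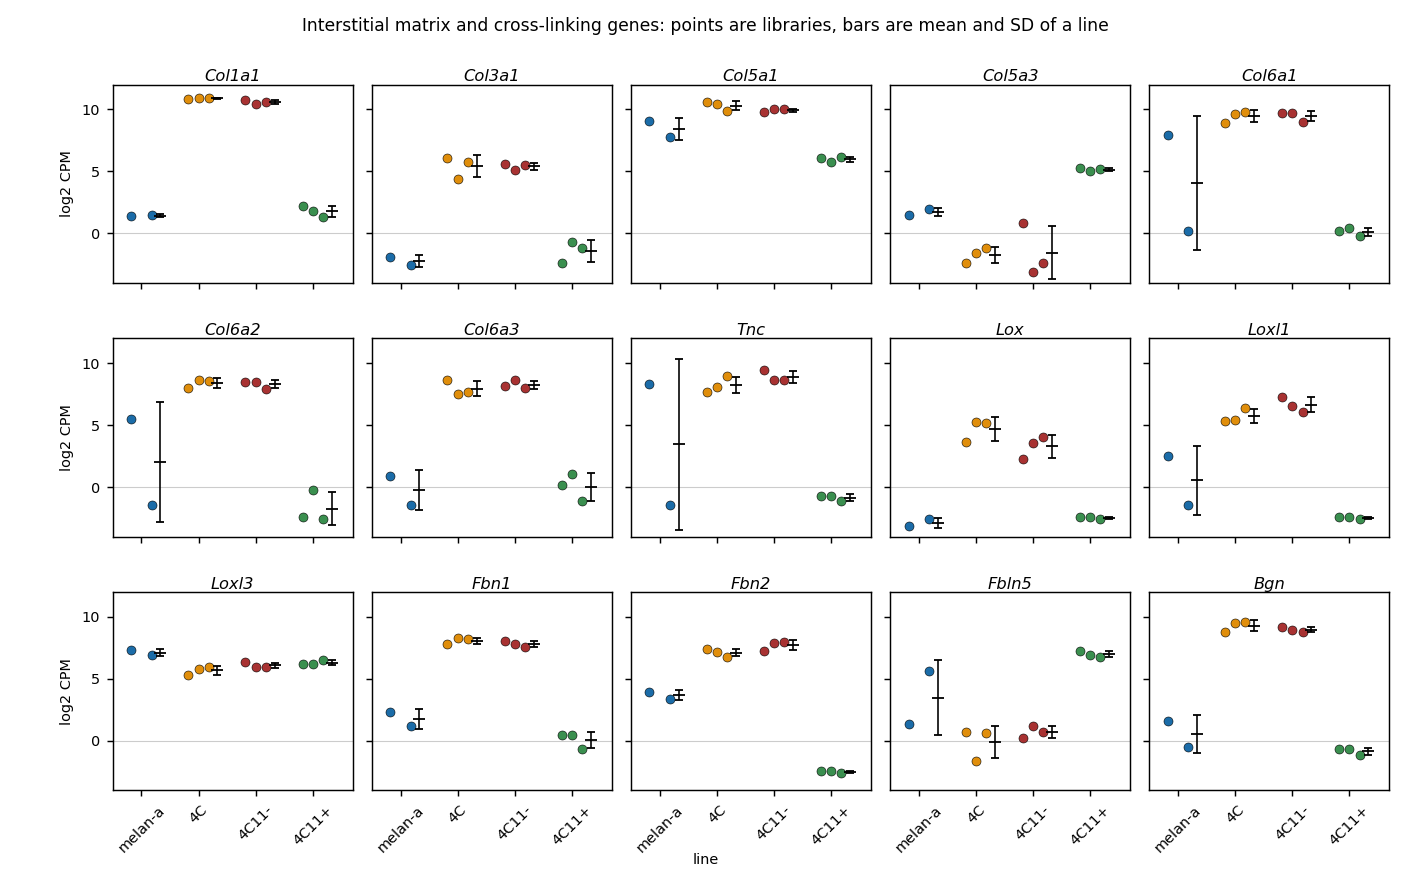
Deposited log2 CPM (vertical axis) of 15 interstitial matrix and cross-linking genes by line (horizontal axis). Points are libraries, and the bar beside them is the mean with its SD; Col6a1, Col6a2 and Tnc are far apart in the 2 melan-a libraries, and Col5a3 and Fbln5 are highest in 4C11+.

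Laminins are the first network of a basement membrane, and each is named for its alpha, beta and gamma chain. Lama4, the alpha chain of mesenchymal and vascular laminins, was at 6.74 and 6.91 in the melan-a libraries, -0.25, -2.44 and -3.44 in those of 4C, 5.49, 3.99 and 3.93 in 4C11- and 6.91, 6.93 and 7.62 in 4C11+. It was high in melan-a and 4C11+, intermediate in 4C11- and nearly absent from 4C, whose highest library held 5 reads. The log2 difference was -8.87 ± 0.77 (SE, adjusted p = 8.84e-06) from melan-a to 4C, 6.52 ± 0.69 (SE, adjusted p = 0.00054) from 4C to 4C11- and 2.68 ± 0.69 (SE, adjusted p = 0.0116) from 4C11- to 4C11+, and 4C11+ was not called different from melan-a (0.33, adjusted p = 0.807). Lama1, the alpha chain of early embryonic laminin, was at 2.85 and -0.54 in the melan-a libraries, -0.25, -2.01 and -3.44 in those of 4C, 5.04, 3.50 and 3.37 in 4C11- and -2.44, -2.44 and -2.58 in 4C11+. It was highest in the 3 libraries of 4C11-, which overlapped no other line, and at 0 reads in all of 4C11+. The difference of 4C11- from 4C was 5.87 ± 0.95 (SE, adjusted p = 0.00941), and 4C11+ was at least 15.4-fold lower than 4C11- (adjusted p = 0.00035). Its call as at least 2.2-fold lower in 4C11+ than in melan-a was lost without any 1 of melan-a replicate 2, 4C replicate 2, 4C11- replicate 2 and 4C11+ replicates 1, 2 and 3 (log2 differences -1.95 to -3.67, adjusted p = 0.0556 to 0.337). Lama5, the widespread alpha chain of adult epithelial basement membranes, was at 9.77 and 8.26 in the melan-a libraries, 8.84, 9.80 and 10.10 in those of 4C, 9.95, 9.29 and 8.97 in 4C11- and 5.12, 4.96 and 6.06 in 4C11+. It was high in every line but 4C11+, which lay below all other libraries, with log2 differences of -4.02 ± 0.46 (SE, adjusted p = 5.19e-05) against 4C11- and -3.64 ± 0.51 (SE, adjusted p = 0.000762) against melan-a.

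Beta and gamma chains showed both patterns as well. Lamc3, a gamma chain outside the common trimers, was at -0.72 and -1.42 in the melan-a libraries, 7.66, 9.18 and 9.61 in those of 4C, 8.70, 8.52 and 7.67 in 4C11- and -2.44, -0.70 and -2.58 in 4C11+. It was between 7.66 and 9.61 in all 6 mesenchymal-like libraries and at 2 reads or fewer in each of the other 5. It was 948-fold (95% counting interval 438 to 2280) higher in 4C than in melan-a (adjusted p = 1.3e-06) and 1180-fold (95% counting interval 427 to 1730) lower in 4C11+ than in 4C11- (adjusted p = 2.68e-07). Its exons share 382 bases (6.27%) with Gm13441 on the other strand, and the strand used in counting was not stated. Lamb1 was at 2.34 and 3.60 in the melan-a libraries, -0.25, -0.21 and -0.70 in those of 4C, 0.26, -1.01 and 0.85 in 4C11- and 3.82, 5.20 and 4.03 in 4C11+. It was lower in 4C and 4C11- than in every melan-a and 4C11+ library, with differences of -3.36 ± 0.65 (SE, adjusted p = 0.00402) in 4C against melan-a and 4.31 ± 0.58 (SE, adjusted p = 0.000172) in 4C11+ against 4C11-. Lamb2 and Lamc1, the partners of many trimers, were abundant in all lines, with means of 7.03 to 8.59 and of 8.20 to 9.42. Lamb2 was called lower in 4C11+ than in 4C11- at -1.56 (adjusted p = 0.0154) and lost without any 1 of 4C11+ replicates 1 and 2 (log2 differences -1.51, adjusted p = 0.0533 to 0.0538), and Lamc1 at -0.75 (adjusted p = 0.0401) and lost without any 1 of 4C replicate 2, 4C11- replicates 1, 2 and 3 and 4C11+ replicates 1 and 2 (log2 differences -0.65 to -0.87, adjusted p = 0.052 to 0.139). As higher in the mesenchymal-like lines together, Lamb2 was called at 1.03 (adjusted p = 0.0282) and lost without any 1 of melan-a replicate 3, 4C replicates 2 and 3 and 4C11+ replicates 1 and 2 (log2 differences 0.63 to 1.04, adjusted p = 0.0537 to 0.133), and Lamc1 at 0.61 (adjusted p = 0.029) and lost without any 1 of melan-a replicate 3, 4C replicates 2 and 3, 4C11- replicate 3 and 4C11+ replicates 1 and 2 (log2 differences 0.38 to 0.60, adjusted p = 0.0509 to 0.125). Lamb3, a beta chain of epithelial laminin, was highest in the 3 libraries of 4C, at 2.49 to 3.29, and its call as 4.65-fold (95% counting interval 2.62 to 5.35) higher in the mesenchymal-like lines together (adjusted p = 0.0303) was lost without any 1 of melan-a replicates 2 and 3, 4C replicates 1 and 3, 4C11- replicate 2 and 4C11+ replicates 1 and 2 (log2 differences 2.06 to 2.37, adjusted p = 0.0515 to 0.0904). Lamb3 differed by 2.86 in 4C against melan-a and by -3.22 in 4C11- against 4C, neither called with all libraries. The mean of 4C11- was thus below that of melan-a, and 4C11- replicates 1 and 3 were more than 3 apart.

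Per kb of exon (log2 CPM minus log2 length), the laminin chains of 4C stood at 6.38 for Lamc1, 6.21 for Lamc3, 6.07 for Lama5 and 5.99 for Lamb2, close together, and at -3.70 or less for Lamb1, Lama1 and Lama4. In 4C11+ the levels on the same scale were 5.15 for Lamc1, 4.42 for Lamb2, 3.56 for Lama4, 1.87 for Lama5 and 1.04 for Lamb1. Thus Lama5 was the alpha chain of the highest level in 4C, 4C11- and melan-a, and Lama4 in 4C11+. In 4C11- Lama5 stood at 5.89, Lama4 at 0.88 and Lama1 at 0.69 on this scale.

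**Figure D4:**
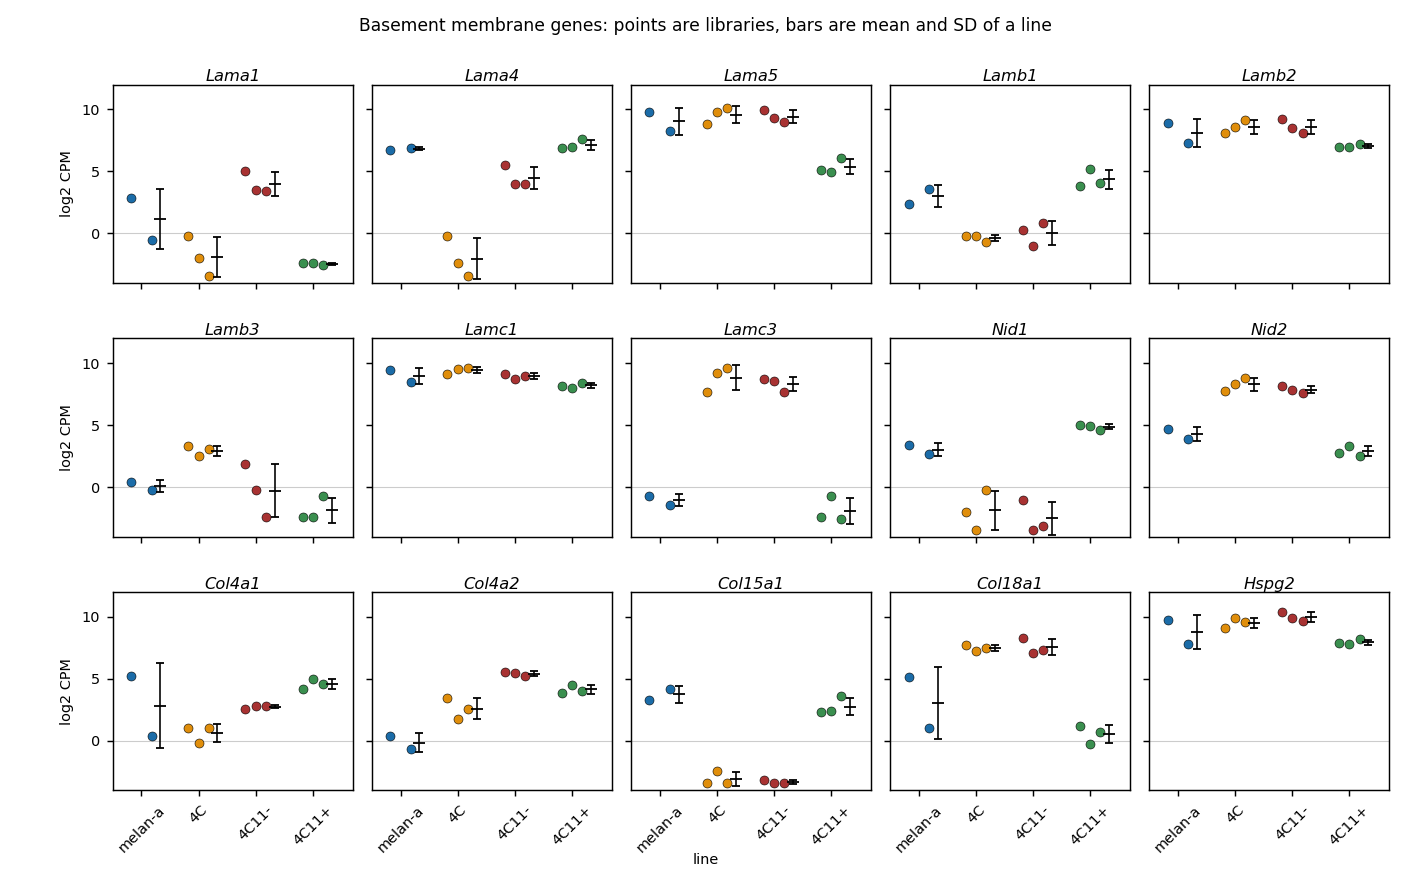
Deposited log2 CPM (vertical axis) of 15 basement membrane genes by line (horizontal axis). Points are libraries, and the bar beside them is the mean with its SD; Lama4, Lamb1, Nid1 and Col15a1 are lowest in 4C or 4C11-, and Lamc3, Nid2 and Col18a1 are highest there.

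Related genes of the basement membrane moved in opposite directions. Nid1, the nidogen that links laminin to collagen IV, was at 3.37 and 2.67 in the melan-a libraries, -1.98, -3.44 and -0.25 in those of 4C, -1.01, -3.44 and -3.15 in 4C11- and 5.03, 4.95 and 4.63 in 4C11+. Nid2, its paralogue, was at 4.70 and 3.88 in the melan-a libraries, 7.72, 8.29 and 8.81 in those of 4C, 8.15, 7.85 and 7.56 in 4C11- and 2.78, 3.32 and 2.54 in 4C11+. Nid1 was high in the epithelial and low in the mesenchymal-like libraries, Nid2 the reverse, and neither overlapped. The exons of Nid1 share 143 bases (2.06%) with Gm48682 on the other strand, whose means were 1.62 for melan-a, -3.44 for 4C, -3.34 for 4C11- and 1.86 for 4C11+. From melan-a to 4C the log2 difference was -4.92 ± 0.91 (SE, adjusted p = 0.00321) for Nid1 and 3.99 ± 0.38 (SE, adjusted p = 1.8e-05) for Nid2. From 4C11- to 4C11+ Nid1 was 169-fold (95% counting interval 88.7 to 262) higher (adjusted p = 4.02e-05), and Nid2 differed by -4.97 ± 0.34 (SE, adjusted p = 8.61e-07). Nid2 was also called lower in 4C11+ than in melan-a, -1.41 (adjusted p = 0.0271), a call lost without any 1 of melan-a replicate 2 and 4C11+ replicates 1 and 3 (log2 differences -1.0 to -1.36, adjusted p = 0.0653 to 0.211). Per kb of exon (log2 CPM minus log2 length), Nid2 stood at 1.92 and Nid1 at 0.23 in melan-a, at 5.90 and -4.69 in 4C, and at 0.51 and 2.08 in 4C11+, the only one of these lines with Nid1 above Nid2. The exons of Nid2 share 437 bases (8.45%) with Rtraf on the other strand, whose means were 7.13 to 7.65 in the 4 lines. The promoter window of Nid1 (chr13:13437352-13437651, plus strand, RefSeq GRCm38.p6) is shown as that of a gene that moved against the interstitial genes, and it holds the TEAD word and a GC box, in capitals as above.
Nid1: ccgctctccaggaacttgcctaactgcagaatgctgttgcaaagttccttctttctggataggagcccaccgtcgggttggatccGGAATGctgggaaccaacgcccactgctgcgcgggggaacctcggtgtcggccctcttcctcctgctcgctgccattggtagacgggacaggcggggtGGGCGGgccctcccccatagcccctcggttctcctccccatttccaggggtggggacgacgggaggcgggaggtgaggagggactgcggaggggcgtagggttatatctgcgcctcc

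Collagens XV and XVIII, basement membrane collagens that carry heparan or chondroitin sulfate chains, also differed in direction. Col15a1 was at 3.28 and 4.21 in the melan-a libraries, -3.44, -2.44 and -3.44 in those of 4C, -3.15, -3.44 and -3.44 in 4C11- and 2.32, 2.39 and 3.59 in 4C11+. Col18a1 was at 5.14 and 1.04 in the melan-a libraries, 7.72, 7.25 and 7.52 in those of 4C, 8.32, 7.13 and 7.31 in 4C11- and 1.18, -0.24 and 0.69 in 4C11+. Col15a1 was present in the epithelial libraries and held at most 1 read in each mesenchymal-like one, and Col18a1 was the higher in 4C and 4C11-, with melan-a replicate 2 between. Col15a1 was 115-fold (95% counting interval 55.5 to 144) lower in 4C than in melan-a (adjusted p = 1.64e-05) and at least 20.2-fold higher in 4C11+ than in 4C11-, where it was at 0 reads (adjusted p = 1.09e-05). The difference of Col18a1 was 4.41 ± 0.90 (SE, adjusted p = 0.00582) in 4C against melan-a, 2.36 without melan-a replicate 3, and -7.04 ± 0.80 (SE, adjusted p = 5.23e-05) in 4C11+ against 4C11-. Perlecan (Hspg2), the heparan sulfate proteoglycan of basement membranes, was abundant in all lines and differed by -2.04 ± 0.41 (SE, adjusted p = 0.00293) in 4C11+ against 4C11- and by 1.39 (adjusted p = 0.00511) between the mesenchymal-like and epithelial lines, the latter 0.91 without melan-a replicate 3. Agrin (Agrn), which clusters receptors at the nerve-muscle junction, was at 9.71 and 8.22 in the melan-a libraries, 6.86, 6.82 and 7.52 in those of 4C, 8.81, 8.14 and 7.94 in 4C11- and 6.57, 6.50 and 6.91 in 4C11+. It was above 7.9 in melan-a and 4C11- and below 7.6 in 4C and 4C11+, so its order is not that of the phenotype. The log2 difference of Agrn was -1.63 ± 0.37 (SE, adjusted p = 0.00594) in 4C11+ against 4C11- and -2.30 ± 0.41 (SE, adjusted p = 0.00356) in 4C11+ against melan-a, and its call in 4C against melan-a, -1.90 (adjusted p = 0.00872), was lost without melan-a replicate 2 (log2 difference -1.15, adjusted p = 0.0826).

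Collagen IV chains form the sheet-like network of basement membranes, and the chain pairs Col4a1 with Col4a2 and Col4a3 with Col4a4 are encoded head to head. Col4a1 was at 5.26 and 0.40 in the melan-a libraries, 1.03, -0.21 and 1.05 in those of 4C, 2.60, 2.77 and 2.83 in 4C11- and 4.15, 4.99 and 4.59 in 4C11+. Col4a2 was at 0.40 and -0.70 in the melan-a libraries, 3.46, 1.78 and 2.55 in those of 4C, 5.53, 5.51 and 5.20 in 4C11- and 3.84, 4.54 and 4.04 in 4C11+. Their orders differed in part, as Col4a2 was lowest in both melan-a libraries and highest in 4C11-, while Col4a1 was highest in melan-a replicate 2 and in 4C11+. Col4a2 differed by 2.75 ± 0.50 (SE, adjusted p = 0.00292) in 4C against melan-a, 2.82 ± 0.45 (SE, adjusted p = 0.00846) in 4C11- against 4C and 4.29 ± 0.50 (SE, adjusted p = 0.000209) in 4C11+ against melan-a. The call in 4C11- against 4C was lost without 4C11- replicate 2 (log2 difference 2.77, adjusted p = 0.0525). With all libraries Col4a1 was called only as lower in the mesenchymal-like lines together, -2.02 (adjusted p = 0.045), and that was lost without any 1 of melan-a replicate 2, 4C replicates 1, 2 and 3, 4C11- replicates 1, 2 and 3 and 4C11+ replicates 1, 2 and 3 (log2 differences -0.81 to -2.13, adjusted p = 0.0601 to 0.12), with a difference of -3.24 without melan-a replicate 3. In 4C11- against 4C, Col4a1 differed by 2.11 (not called, adjusted p = 0.338), in the direction of Col4a2. In 4C11+ against 4C11- the pair had opposite signs, 1.84 for Col4a1 (adjusted p = 0.152) and -1.27 for Col4a2, neither called with all libraries. With either melan-a library left out these differences stay the same, and all 3 were called (adjusted p up to 0.0268 and 0.0062 for Col4a1 and 0.0344 for Col4a2). Against melan-a Col4a1 was at -4.64 without melan-a replicate 3 (adjusted p = 0.000348) for 4C and 4.17 without melan-a replicate 2 (adjusted p = 0.00134) for 4C11+, both called, and 0.22 without melan-a replicate 2 (adjusted p = 0.872) and -0.68 without melan-a replicate 3 (adjusted p = 0.451), neither called. Per kb of exon (log2 CPM minus log2 length) the pair stood at -2.28 and -0.13 in 4C, -0.17 and 2.69 in 4C11-, and 1.67 and 1.42 in 4C11+.

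Col4a3 was at 2.34 and 0.40 in the melan-a libraries, -1.01, -0.42 and -2.44 in those of 4C, 1.73, 2.45 and 1.98 in 4C11- and 0.15, -0.24 and -1.16 in 4C11+. Col4a4 was at 1.97 and 1.04 in the melan-a libraries, 1.13, 1.04 and 1.30 in those of 4C, 4.29, 4.39 and 4.42 in 4C11- and 1.18, 1.32 and 2.49 in 4C11+. Both were highest in 4C11- or, for Col4a3, in 4C11- and melan-a replicate 2. Col4a4 was higher in 4C11- than in 4C by 3.21 ± 0.42 (SE, adjusted p = 0.00243) and fell by 2.70 to 4C11+ (adjusted p = 0.000554), and its call in the mesenchymal-like lines together, 1.18 (adjusted p = 0.0154), was lost without melan-a replicate 3 (log2 difference 0.94, adjusted p = 0.0651). The calls of Col4a3 did not hold in the same way. In 4C11- against 4C it was 3.34 (adjusted p = 0.0327) and lost without any 1 of 4C replicates 1, 2 and 3, 4C11- replicates 1, 2 and 3 and 4C11+ replicates 1 and 2 (log2 differences 2.77 to 3.78, adjusted p = 0.0537 to 0.138), in 4C against melan-a -2.66 (adjusted p = 0.0358) and lost without any 1 of melan-a replicate 2, 4C replicates 1 and 3, 4C11- replicate 2 and 4C11+ replicate 2 (log2 differences -1.69 to -2.80, adjusted p = 0.0532 to 0.271), and in 4C11+ it was 5.52-fold (95% counting interval 3.16 to 9.16) lower than in 4C11- (adjusted p = 0.0172) and lost without any 1 of 4C11- replicate 2 and 4C11+ replicate 3 (log2 differences -2.09 to -2.27, adjusted p = 0.06 to 0.0652).

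The windows of the head-to-head pairs are shown because the chains of each pair share a promoter region. Those of Col4a1 (chr8:11312777-11313076, minus strand) and Col4a2 (chr8:11312555-11312854, plus strand) share 78 bases, read in opposite directions, and the annotated genes overlap by 22 bases. That of Col4a4 (chr1:82586800-82587099, minus strand) covers the annotated start of Col4a3 on the other strand, with 71 bases between the annotated starts of these genes. All are from RefSeq (GRCm38.p6), 5′ to 3′, with the words in capitals. They hold 1 GC box in Col4a1, 3 in Col4a2, and an E-box in Col4a4.
Col4a1: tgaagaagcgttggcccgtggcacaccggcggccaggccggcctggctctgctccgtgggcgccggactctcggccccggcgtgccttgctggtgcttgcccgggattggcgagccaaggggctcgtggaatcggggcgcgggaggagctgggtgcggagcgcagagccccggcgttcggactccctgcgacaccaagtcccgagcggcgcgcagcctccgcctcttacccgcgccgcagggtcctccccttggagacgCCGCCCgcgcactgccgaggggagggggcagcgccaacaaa
Col4a2: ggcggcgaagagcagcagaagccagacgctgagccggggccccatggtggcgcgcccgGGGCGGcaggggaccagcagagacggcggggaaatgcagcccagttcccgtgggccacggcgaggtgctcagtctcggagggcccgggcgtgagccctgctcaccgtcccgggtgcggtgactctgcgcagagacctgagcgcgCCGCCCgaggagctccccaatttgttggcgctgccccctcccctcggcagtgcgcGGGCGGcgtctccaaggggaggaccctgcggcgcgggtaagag
Col4a4: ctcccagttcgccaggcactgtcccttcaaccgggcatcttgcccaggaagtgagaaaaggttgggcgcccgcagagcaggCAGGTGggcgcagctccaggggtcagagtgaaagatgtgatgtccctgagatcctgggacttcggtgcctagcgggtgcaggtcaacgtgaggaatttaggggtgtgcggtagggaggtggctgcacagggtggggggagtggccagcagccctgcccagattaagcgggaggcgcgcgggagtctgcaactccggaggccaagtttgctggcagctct

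Lysyl oxidases oxidize lysines of collagen and elastin so that the fibres become cross-linked, and all 5 had values. Lox, the founding enzyme, was at -3.15 and -2.58 in the melan-a libraries, 3.60, 5.28 and 5.17 in those of 4C, 2.26, 3.57 and 4.03 in 4C11- and -2.44, -2.44 and -2.58 in 4C11+. It was present in all 6 mesenchymal-like libraries and at 0 reads in all 5 epithelial ones. That makes it at least 33.8-fold higher in 4C than in melan-a (adjusted p = 8.86e-06) and at least 9.61-fold lower in 4C11+ than in 4C11- (adjusted p = 2.08e-05). Loxl1, which is needed for elastic fibres, was at 2.49 and -1.42 in the melan-a libraries, 5.36, 5.45 and 6.36 in those of 4C, 7.30, 6.55 and 6.09 in 4C11- and -2.44, -2.44 and -2.58 in 4C11+. It was high in 4C and 4C11-, at 0 reads in 4C11+ and at different levels in the 2 melan-a libraries. The difference of 4C from melan-a was 5.18 ± 0.86 (SE, adjusted p = 0.00157), 3.23 without melan-a replicate 3, and 4C11+ was at least 98.6-fold lower than 4C11- (adjusted p = 5.04e-06). As lower in 4C11+ than in melan-a it was called at at least 1.43-fold (adjusted p = 0.035), and this was lost without any 1 of melan-a replicate 2, 4C replicate 2, 4C11- replicate 2 and 4C11+ replicates 1, 2 and 3 (log2 differences -1.07 to -3.05, adjusted p = 0.0535 to 0.296). The log2 difference was -3.03 with all libraries and -4.98 without melan-a replicate 3, where it stayed called.

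Loxl4 was at -3.15 and 0.22 in the melan-a libraries, 3.60, 4.14 and 3.88 in those of 4C, 4.69, 3.37 and 3.86 in 4C11- and 1.04, 1.04 and 0.88 in 4C11+. Loxl3 was at 7.31 and 6.91 in the melan-a libraries, 5.29, 5.80 and 5.94 in those of 4C, 6.35, 5.97 and 5.94 in 4C11- and 6.17, 6.21 and 6.53 in 4C11+. Loxl4 was highest in the mesenchymal-like lines, and Loxl3 was abundant in all lines with melan-a above the others. Loxl4 differed by 5.34 ± 0.78 (SE, adjusted p = 0.000563) in 4C against melan-a and -2.99 ± 0.69 (SE, adjusted p = 0.00686) in 4C11+ against 4C11-. For Loxl3 the difference of 4C from melan-a was -1.43 ± 0.27 (SE, adjusted p = 0.00378), and that of 4C11+ from 4C11- was not called (0.22, adjusted p = 0.532). Its exons share 535 bases (11.6%) with Htra2 on the other strand, whose means were 5.62 to 6.29 in the 4 lines. Loxl2 was 17.8-fold (95% counting interval 7.36 to 28.8) lower in 4C11+ than in 4C11- (adjusted p = 0.000221) at means of -1.28 and 2.88. Per kb of exon (log2 CPM minus log2 length), Loxl1 with 4.0, Loxl3 with 3.47 and Lox with 2.43 were the highest of the 5 in 4C, and in 4C11+ Loxl3 stood at 4.10 and the other 4 at -1.09 or less.

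Elastic fibres are built on microfibrils of fibrillins, and fibulins help place elastin on them. Fbn1, the main fibrillin of adult tissue, was at 2.34 and 1.16 in the melan-a libraries, 7.80, 8.26 and 8.18 in those of 4C, 8.05, 7.81 and 7.58 in 4C11- and 0.44, 0.44 and -0.70 in 4C11+. Fbn2, the fibrillin of development, was at 3.97 and 3.38 in the melan-a libraries, 7.38, 7.15 and 6.79 in those of 4C, 7.23, 7.90 and 8.01 in 4C11- and -2.44, -2.44 and -2.58 in 4C11+. Both were above 6.7 in all 6 mesenchymal-like libraries and below 4 in the others, and Fbn2 was at 0 reads in all of 4C11+. Fbn1 differed by 6.33 ± 0.43 (SE, adjusted p = 1.36e-06) in 4C against melan-a and -7.75 ± 0.38 (SE, adjusted p = 8.62e-08) in 4C11+ against 4C11-. Fbn2 differed by 3.44 ± 0.34 (SE, adjusted p = 2.78e-05) in 4C against melan-a and was at least 207-fold lower in 4C11+ than in 4C11- (adjusted p = 5.76e-09) and at least 12.5-fold lower than in melan-a (adjusted p = 6.15e-07). The call of Fbn1 as lower in 4C11+ than in melan-a, -1.69 (adjusted p = 0.0212), was lost without melan-a replicate 2 (log2 difference -1.10, adjusted p = 0.189).

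The fibulins divided. Fbln5, which binds elastin to microfibrils, was at 1.35 and 5.62 in the melan-a libraries, 0.70, -1.61 and 0.63 in those of 4C, 0.26, 1.20 and 0.70 in 4C11- and 7.23, 6.94 and 6.76 in 4C11+. It was above 6.7 in all 3 libraries of 4C11+ and below 1.3 in all 6 of 4C and 4C11-, with melan-a replicate 3 near the former and replicate 2 near the latter. The difference of 4C11+ from 4C11- was 6.25 ± 0.91 (SE, adjusted p = 0.000333). Against melan-a, the call of 4C, -3.58 (adjusted p = 0.0353), was lost without any 1 of melan-a replicate 3, 4C replicates 2 and 3 and 4C11+ replicates 1, 2 and 3 (log2 differences -1.44 to -3.94, adjusted p = 0.0526 to 0.297) and the difference was -5.71 without melan-a replicate 2. The call of 4C11+ against melan-a, 3.49 (adjusted p = 0.0388), was lost without any 1 of melan-a replicate 2, 4C replicate 3, 4C11- replicate 2 and 4C11+ replicates 1, 2 and 3 (log2 differences 1.35 to 3.60, adjusted p = 0.0505 to 0.357), and the difference was 5.62 without melan-a replicate 3. Fbln1 was at 5.18 and 5.31 in melan-a and between 6.31 and 7.60 in all other libraries, with differences of 1.51 ± 0.31 (SE, adjusted p = 0.00638) for 4C and 1.85 ± 0.31 (SE, adjusted p = 0.00246) for 4C11+ against melan-a.

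Fbln7 was at 0 reads in both melan-a libraries and at least 18.2-fold higher in 4C (adjusted p = 3.2e-05), and it fell by 3.21 from 4C11- to 4C11+ (adjusted p = 0.00194). As at least 1.36-fold higher in 4C11+ than in melan-a it was called at an adjusted p of 0.0144 and lost without any 1 of melan-a replicate 2 and 4C11+ replicates 1 and 2 (log2 differences 2.51 to 2.72, adjusted p = 0.057 to 0.0882). Fbln2 was at 0 reads in 4C11+, at least 4.03-fold lower than in 4C11- (adjusted p = 0.000489), and it was 11.3-fold (95% counting interval 4.08 to 21.3) higher in 4C than in melan-a (adjusted p = 0.0101), a call lost without melan-a replicate 3 (log2 difference 2.33, adjusted p = 0.0888). Efemp2, which recruits lysyl oxidase to elastin, had means of 4.52 for melan-a, 5.94 for 4C, 5.85 for 4C11- and 4.69 for 4C11+. Its call in 4C against melan-a, 1.42 (adjusted p = 0.0193), was lost without any 1 of melan-a replicate 3 and 4C replicate 2 (log2 differences 0.85 to 1.38, adjusted p = 0.0655 to 0.159), and that in 4C11+ against 4C11-, -1.16 (adjusted p = 0.0172), without 4C11+ replicate 1 (log2 difference -1.09, adjusted p = 0.0671). Between the mesenchymal-like and epithelial lines it differed by 1.29 ± 0.24 (SE, adjusted p = 0.00166), a call that held without each of the 11 libraries.

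Matricellular and adhesive proteins tell cells about the matrix around them. Tnc, a large glycoprotein of remodelled tissue, was at 8.30 and -1.42 in the melan-a libraries, 7.67, 8.08 and 8.96 in those of 4C, 9.41, 8.61 and 8.60 in 4C11- and -0.70, -0.70 and -1.16 in 4C11+. All 6 mesenchymal-like libraries and melan-a replicate 2 were above 7.6, and melan-a replicate 3 and all of 4C11+ were below 0. In 4C11+ it was 846-fold (95% counting interval 470 to 1840) lower than in 4C11- (adjusted p = 0.00114). Between 4C and melan-a it was not called (4.80, adjusted p = 0.117), but this rests on which melan-a library is used, as the log2 difference was 9.66 without melan-a replicate 2 (adjusted p = 9.08e-07) and -0.07 without melan-a replicate 3 (adjusted p = 0.949). In the mesenchymal-like lines together it was called 153-fold (95% counting interval 114 to 226) higher (adjusted p = 0.00106), and the log2 difference was 4.83 without melan-a replicate 3. Thbs2, which binds matrix and cell surface ligands, was at 2.07 and -0.24 in the melan-a libraries, 7.09, 7.51 and 8.72 in those of 4C, 8.15, 7.17 and 7.12 in 4C11- and 1.48, 0.85 and 0.69 in 4C11+. It was high in 4C and 4C11- and low in both other lines without overlap, with log2 differences of 6.86 ± 0.65 (SE, adjusted p = 1.86e-05) in 4C against melan-a and -6.47 ± 0.58 (SE, adjusted p = 8.1e-06) in 4C11+ against 4C11-.

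Fn1, the fibronectin to which many collagens and integrins bind, was at 10.97 and 8.81 in the melan-a libraries, 8.94, 9.16 and 9.60 in those of 4C, 9.97, 8.99 and 9.27 in 4C11- and 6.09, 5.97 and 6.51 in 4C11+. Thbs1, an activator of latent TGF-beta, was at 10.64 and 8.35 in the melan-a libraries, 8.43, 9.35 and 10.26 in those of 4C, 9.05, 9.20 and 8.58 in 4C11- and 5.36, 5.70 and 5.59 in 4C11+. Both were lowest in the 3 libraries of 4C11+, without overlap with the other 8, and melan-a was among the high lines. In 4C11+ Fn1 differed by -3.22 ± 0.46 (SE, adjusted p = 0.000274) against 4C11- and -3.70 ± 0.51 (SE, adjusted p = 0.000682) against melan-a, and Thbs1 by -3.40 ± 0.53 (SE, adjusted p = 0.000574) and -3.94 ± 0.60 (SE, adjusted p = 0.00128). Neither was called between 4C and melan-a with all libraries (-0.66 and -0.15, adjusted p = 0.464 and 0.915), and both changed sign with the melan-a library. Fn1 was at 0.42 without melan-a replicate 2 (adjusted p = 0.58) and, called lower in 4C, at -1.74 without melan-a replicate 3 (adjusted p = 0.0149), and Thbs1 at 1.0 without melan-a replicate 2 (adjusted p = 0.292) and -1.29 without melan-a replicate 3 (adjusted p = 0.15). As higher in the mesenchymal-like lines together, Fn1 was called at 1.28 (adjusted p = 0.0148) and Thbs1 at 1.62 (adjusted p = 0.0095), 0.74 without melan-a replicate 3 and 1.05 without melan-a replicate 3. Thbs3 was likewise lowest in 4C11+, with a log2 difference of -3.96 ± 0.42 (SE, adjusted p = 3.04e-05) against 4C11-. Its call in 4C against melan-a, 1.75 (adjusted p = 0.0263), was lost without any 1 of melan-a replicate 3 and 4C replicates 2 and 3 (log2 differences 0.76 to 1.71, adjusted p = 0.0781 to 0.201) with a difference of 2.75 without melan-a replicate 2, and that in 4C11+ against melan-a, -2.24 (adjusted p = 0.00889), was lost without melan-a replicate 2 (log2 difference -1.24, adjusted p = 0.0607).

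Postn, a scaffold for collagen assembly, was at -1.90 and 2.67 in the melan-a libraries, 0.60, -2.44 and -0.70 in those of 4C, -3.15, -1.50 and -2.01 in 4C11- and 2.37, 2.32 and 2.95 in 4C11+. It was above 2.3 in 4C11+ and melan-a replicate 3 and below 0.7 in the rest. The difference of 4C11+ from 4C11- was 4.77 ± 1.07 (SE, adjusted p = 0.00581), and the call in the mesenchymal-like lines together, -3.0 (adjusted p = 0.015), was lost without melan-a replicate 3 (log2 difference -1.86, adjusted p = 0.0656). Sparc, a collagen-binding glycoprotein, was at 9.73 and 8.46 in the melan-a libraries, 9.74, 10.07 and 10.60 in those of 4C, 10.27, 10.04 and 10.03 in 4C11- and 10.12, 9.94 and 10.02 in 4C11+. It was between 8.46 and 10.60 in all 11 libraries and called in none of the 5 comparisons with all libraries, with log2 differences from -0.09 to 1.05. It was called higher in 4C than in melan-a at 1.68 without melan-a replicate 2 (adjusted p = 0.00317), in 4C11+ than in melan-a at 1.57 without melan-a replicate 2 (adjusted p = 0.00897) and in the mesenchymal-like lines together at 0.88 without melan-a replicate 2 (adjusted p = 0.00426). Per kb of exon (log2 CPM minus log2 length) it stood at 7.17 in melan-a and 8.11 to 8.22 in the other lines.

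Of the proteoglycans, biglycan (Bgn), a small leucine-rich protein that binds collagen fibrils, was at 1.63 and -0.54 in the melan-a libraries, 8.80, 9.48 and 9.59 in those of 4C, 9.18, 8.94 and 8.77 in 4C11- and -0.70, -0.70 and -1.16 in 4C11+. It was between 8.77 and 9.59 in the mesenchymal-like libraries and at or below 1.63 in the others. The difference was 8.74 ± 0.51 (SE, adjusted p = 5.01e-07) in 4C against melan-a, and 4C11+ was 900-fold (95% counting interval 500 to 1960) lower than 4C11- (adjusted p = 5.45e-08). Versican (Vcan), a large hyaluronan-binding proteoglycan, was at 1.29 or less in every library and called in none of the comparisons. Dcn and Lum were not analysed here.

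Genes that process collagen but lie outside the members were taken from fixed lists. Of 22 genes for modification, folding and export 19 had values, and 2 were called higher and 2 lower in 4C than in melan-a, 2 and 6 in 4C11+ against 4C11-, and 0 in 4C11- against 4C by limma, where 4 were higher and 2 lower at an unadjusted p under 0.05. Of all genes, 7.64% were called higher and 7.55% lower in 4C than in melan-a, and 1.26% and 0.406% in 4C11- against 4C. The shares were 15.6% and 15.4% in 4C11+ against 4C11-, and 14.3% and 15.3% in the mesenchymal-like lines together. No share of all genes at an unadjusted p is given, so counts at that threshold have no background beside them. Of these list calls, 0 of 2 and 1 of 2 in 4C and 1 of 2 and 2 of 6 in 4C11+ were lost when 1 library was left out. The list sum was 2410 to 4280 CPM in all libraries, with P4hb the most abundant gene in each. Serpinh1, the collagen chaperone, was at 9.27 and 9.26 in the melan-a libraries, 9.34, 8.91 and 9.09 in those of 4C, 9.61, 9.51 and 9.34 in 4C11- and 9.59, 9.65 and 9.07 in 4C11+. It was at a like level in every line and was not called in any comparison. Fkbp10, which folds procollagen and aids its lysine hydroxylation, was at 0.63 and -1.42 in the melan-a libraries, 7.48, 7.49 and 7.50 in those of 4C, 7.29, 6.79 and 6.39 in 4C11- and 4.24, 4.53 and 3.03 in 4C11+. It was low in melan-a, intermediate in 4C11+ and highest in 4C and 4C11-, with differences of 7.89 ± 0.57 (SE, adjusted p = 2.18e-06) in 4C against melan-a and -2.89 ± 0.51 (SE, adjusted p = 0.00126) in 4C11+ against 4C11-. P3h4, a partner of the lysyl hydroxylases, was 80.5-fold (95% counting interval 29.2 to 152) higher in 4C than in melan-a (adjusted p = 0.000262) and 75.7-fold (95% counting interval 24.6 to 96.5) lower in 4C11+ than in 4C11- (adjusted p = 7.22e-05). P3h3, a prolyl 3-hydroxylase family member, was not called in 4C against melan-a (-0.33, adjusted p = 0.751), and it was higher in 4C11+ than in 4C11- by 3.52 ± 0.45 (SE, adjusted p = 0.000125) and than in melan-a by 4.89 ± 0.50 (SE, adjusted p = 7.63e-05).

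Procollagen processing was represented by 4 of 8 genes. All 4 were called lower in 4C11+ than in 4C11- and higher in the mesenchymal-like lines together, and 3 were called higher in 4C than in melan-a, beside 15.4%, 14.3% and 7.64% of all genes. Pcolce, which enhances removal of the C-propeptide, was at 8.53 and 8.08 in the melan-a libraries, 9.80, 10.02 and 10.29 in those of 4C, 10.06, 10.05 and 9.38 in 4C11- and 7.56, 7.71 and 7.54 in 4C11+. It was highest in every library of 4C and 4C11-, by 1.73 ± 0.26 (SE, adjusted p = 0.00068) in 4C against melan-a, and lowest in 4C11+, with a difference of -2.23 ± 0.23 (SE, adjusted p = 2.5e-05) against 4C11-. Its relative Pcolce2 was at 0 reads in both melan-a libraries and at least 18.7-fold higher in 4C (adjusted p = 6.55e-05). Bmp1, the C-proteinase itself, differed by -2.55 ± 0.41 (SE, adjusted p = 0.000719) in 4C11+ against 4C11- and by 1.43 (adjusted p = 0.00442) between the mesenchymal-like and epithelial lines, the latter 0.94 without melan-a replicate 3. The call of Adamts2 in 4C against melan-a was lost without melan-a replicate 2 (adjusted p = 0.0593).

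All 18 matrix receptors had values. In 4C against melan-a 5 were called higher and 3 lower, in 4C11- against 4C 0 by limma (0 higher and 4 lower at an unadjusted p under 0.05), in 4C11+ against 4C11- 4 and 3, and in the mesenchymal-like lines together 4 and 4. The shares of all genes were those given above for the collagen-processing genes, with none at an unadjusted p. Leaving out 1 library ended the calls of 1 of the 5 and 2 of the 3, of 1 of the 4 and 1 of the 3, and of 0 of the 4 and 1 of the 4. Itga3, the laminin-binding alpha3 integrin, was at 6.90 and 6.73 in the melan-a libraries, 8.76, 9.18 and 9.36 in those of 4C, 8.82, 8.20 and 8.34 in 4C11- and 1.70, 1.68 and 1.04 in 4C11+. Itga6, the laminin-binding alpha6 integrin, was at 8.87 and 8.96 in the melan-a libraries, 6.91, 6.30 and 6.60 in those of 4C, 5.69, 5.98 and 6.11 in 4C11- and 7.97, 7.96 and 8.56 in 4C11+. Itga3 was highest in the mesenchymal-like lines and lowest in 4C11+, Itga6 was the lowest in those lines, and neither overlapped between the phenotypes. Itga3 differed by 2.28 ± 0.30 (SE, adjusted p = 0.000239) in 4C against melan-a and -6.98 ± 0.26 (SE, adjusted p = 1.64e-08) in 4C11+ against 4C11-, and Itga6 by -2.31 ± 0.26 (SE, adjusted p = 8.47e-05) and 2.24 ± 0.24 (SE, adjusted p = 2.82e-05). Itga11, a receptor for fibrillar collagens, was higher in 4C than in melan-a by 5.14 ± 0.95 (SE, adjusted p = 0.00307) and differed by -4.28 ± 0.85 (SE, adjusted p = 0.00265) in 4C11+ against 4C11-. Itgb1, the beta chain common to these integrins, was between 8.87 and 9.83 in all libraries and not called.

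Of 11 genes that encode TGF-beta, store it or respond to it, 10 had values, Tgfb1 and Tgfb3 among them. In 4C 8 were called higher than in melan-a, beside 7.64% of all genes, and in 4C11+ 7 were called lower than in 4C11-, beside 15.4%. In the mesenchymal-like lines together all 10 were called higher, beside 14.3%. Between 4C11- and 4C 0 were called by limma, beside 1.26% of all genes higher and 0.406% lower. At an unadjusted p under 0.05, 0 were higher and 3 lower in 4C11- than in 4C, with no share of all genes given at that threshold. Calls of 4 of the 8, 1 of the 7 and 3 of the 10 were lost when 1 of the 11 libraries was left out, and for Tgfb1, Ltbp3 and Ccn2 in 4C melan-a replicate 3 was among those libraries (adjusted p up to 0.296). Ltbp4 stayed called in 4C against melan-a at 4.17, but it was 6.39 without melan-a replicate 2 and 1.95 without replicate 3. Ltbp1, a latent TGF-beta binding protein, was at 6.11 and 4.75 in the melan-a libraries, 7.98, 8.57 and 8.75 in those of 4C, 7.47, 6.61 and 6.74 in 4C11- and 1.18, 2.45 and 1.90 in 4C11+. Ltbp2, which binds fibrillin, was at 0.06 and -1.42 in the melan-a libraries, 6.05, 8.59 and 7.63 in those of 4C, 5.41, 5.07 and 3.91 in 4C11- and -0.70, -0.70 and -0.70 in 4C11+. Both were highest on average in 4C and next in 4C11-. Ltbp1 was lower in every 4C11+ library than in melan-a, while Ltbp2 was at 0.06 or less in both of those lines. Ltbp1 differed by 3.01 ± 0.47 (SE, adjusted p = 0.000998) in 4C against melan-a and -5.10 ± 0.42 (SE, adjusted p = 4.22e-06) in 4C11+ against 4C11-, and Ltbp2 by 8.10 ± 0.71 (SE, adjusted p = 9.07e-06) in 4C against melan-a. The list sum was 380 and 108 CPM in melan-a replicates 2 and 3, 779 to 1610 CPM in 4C, 635 to 1170 CPM in 4C11- and 140 to 223 CPM in 4C11+.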

How the data were processed

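RNA of triplicate cultures of 4 lines was sequenced, and 11 libraries were used here, all but melan-a replicate 1. The authors trimmed reads with Trimmomatic, aligned them to GRCm38 (Ensembl 90) with STAR, counted genes with Rsubread, dropped genes that did not reach 1 CPM in 4 or more libraries, and used voom of limma, with versions not stated. The deposited values are log2 CPM. The 11 libraries share 1 highest value, 13.69, as after quantile normalization, a step that was not stated.

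Here limma 3.58.1 (R 4.3.3) fitted a mean per line to all 11 libraries and 14272 genes, with a mean-variance trend in empirical Bayes and Benjamini-Hochberg adjustment over all genes, and a gene was called at an adjusted p under 0.05. The smallest exact permutation p is 0.1 for 3 against 3 libraries and 0.2 for 2 against 3, so limma was used. The comparisons were 4C with melan-a, 4C11- with 4C, 4C11+ with 4C11-, 4C11+ with melan-a, and 4C and 4C11- with melan-a and 4C11+. Reads per gene were derived from the spacing of the low values. Depth, 3.50 to 7.42 M reads, was estimated from the step at 40 reads as for plain CPM, so it is unreliable after quantile normalization. Where a line held only 0 reads a lower bound at 3 reads was given, and at 1 to 3 reads a ratio with its 95% counting interval. Members named are up to 8 higher and 8 lower called ones without overlap per comparison, those the paper names (Nid2, Loxl1, Col9a1, Tnc), chains of the same protomers, nidogens, lysyl oxidases, and single glycoproteins and proteoglycans. Alternatives were quantile normalization again, an offset of 1, a filter on the mean, no trend, robust empirical Bayes, a replicate term, only the lines compared, and each library left out. Promoters are from RefSeq. Python 3.11.15, NumPy 2.4.6, SciPy 1.17.1, pandas 2.3.3 and Matplotlib 3.10.9 were used, and the fit was tested on simulated data. The members and lists were chosen with earlier results of these data known.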

Additional observations from a re-analysis of the deposited data

How the results depend on the processing

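Of 118 log2 differences of members both named and called, a set chosen by its calls, 0 changed sign under any alternative. Of 89 others of named members, not called with all libraries, 34 changed sign when some library was left out, such as those of Tnc (4.80, and -0.07 without melan-a replicate 3) and Fn1 (-0.66, and 0.42 without melan-a replicate 2) in 4C against melan-a. Still called were 118 with quantile normalization again, 115 with an offset of 1, 110 without the trend, 117 with robust empirical Bayes, 87 of the 89 kept by the filter on the mean and 72 of the 84 in fits of only the lines compared. With 1 library left out the number was 101 to 114.

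With each library left out in turn, the number of members called higher and lower ranged from 22 to 31 and from 9 to 14 in 4C against melan-a. It ranged from 3 to 9 and from 0 to 1 in 4C11- against 4C, while between the melanoma lines, 4C11+ against 4C11-, it was from 10 to 11 and from 35 to 40. It was from 2 to 6 and from 7 to 25 in 4C11+ against melan-a, and from 34 to 41 and from 12 to 14 in 4C and 4C11- against melan-a and 4C11+. The widest range, 7 to 25, lies between leaving out melan-a replicate 2 and melan-a replicate 3, whose values differ as described above.

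With genes of a mean under 1 left out, 7 members were called lower in 4C than in melan-a, 3 higher in 4C11- than in 4C, 3 higher in 4C11+ than in 4C11- and 6 lower in 4C and 4C11- than in melan-a and 4C11+. That filter takes members out of the table, so fewer can be called. With an offset of 1 the number lower in 4C11- than in 4C was 1, and the cause was not tested. With only the lines compared in the fit, 8 were called lower in 4C11+ than in melan-a, from 5 libraries in place of 11.

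Replicate numbers might mark cultures handled together. Over 15 pairs of libraries of the same number from different lines, r of the residuals was -0.226 to 0.388, over 0.1 in 8, and 4 of 11 libraries were most like one of their own number. With a replicate block in the fit, 26 members were called higher and 15 lower in 4C against melan-a, 6 and 0 from 4C to 4C11-, 10 and 37 from 4C11- to 4C11+, 4 and 14 in 4C11+ against melan-a and 38 and 14 in 4C and 4C11- against melan-a and 4C11+, and 113 of the 118 differences stayed called.

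Each stage is 1 line, so replicates are cultures and not independent derivations. With 2 melan-a libraries that differ in these genes, means of that line rest on little. At a roughly estimated 3.50 to 7.42 M reads, a gene under 3 reads is known only by a bound. The libraries were made with a stranded kit, but the strand used in counting was not stated. The exons of Loxl3, Nid2, Lamc3, Thbs3, Efemp2, Nid1, Col5a1, Fbn2, Col4a2, Col10a1 and Col4a1 share bases with a gene with values on the other strand. These shares run from 11.6% of Loxl3 to 0.295% of Col4a1. The exons of Col20a1 share 79 bases (1.54%) with BX649560.1 on the same strand, whose means were 3.97 for melan-a, 1.97 for 4C, 2.27 for 4C11- and 3.79 for 4C11+. RNA levels say nothing here of secreted or cross-linked protein.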
